A study of Vitis vinifera with 2 samples.

Results

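Of the 6663 binding events of grapevine MYB24 listed on primary contigs alone, 1153 (17.3%) were listed again at a lower strength once the alternative haplotype was included, and these weakened events are described here. They were taken from 2 deposited lists of the same library. The primary-only list has events on primary contigs, which carry one version of each locus of the heterozygous 'Cabernet Sauvignon' genome. The diploid list has 4042 events on primary contigs and 2060 on 424 haplotigs, the assembled stretches of the other version. A primary-only event was called weakened where the nearest diploid event on its contig lay at most 100 bp away and the log2 of diploid over primary-only strength was below -0.25. Strength is the signal value that the authors deposited for each event, and what it counts is not stated. Of 2929 events matched in this way, 1153 (39.4%) were weakened, 1690 were unchanged (within 0.25 of 0 on the log2 scale) and 86 (2.94%) were higher in the diploid list. The other 3734 primary-only events had no diploid event within 100 bp and are called lost. The members were thus chosen by their strengths in both lists, and those strengths describe them and test nothing.

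The measurements came from DNA affinity purification sequencing, in which a tagged transcription factor is mixed with purified genomic DNA fragments and the fragments it holds are sequenced. One library was made with HALO-tagged MYB24 and 1 with the HALO tag alone (pIXHALO) as negative control. In both, the protein was made in rabbit reticulocyte lysate and the DNA was naked DNA from young leaves of clone 08. With 1 library in each group there is no spread between replicates, and the depth is unknown, so every comparison is a description and no p-value is given. Shares are given with 95% Wilson intervals, which take each event as independent and hold counting error alone.

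MYB24 belongs to the R2R3-MYB transcription factors, which bind short DNA motifs through a pair of MYB repeats. Its Arabidopsis namesake acts in jasmonate-dependent flower development, and the series concerns terpene and flavonol metabolism in grape berries. In a heterozygous vine a locus is present on both parental chromosomes, and a reference with haplotigs offers a read from such a locus a place on either copy. A list made on primary contigs alone offers it one place. Events that lose strength when haplotigs are added are therefore candidate loci at which both haplotypes carry the site, and events on haplotigs named after the same contig are the values to set beside them.

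Primary-only strength was higher at weakened events than in the other classes. Their median was 69 (quartiles 46 and 118), against 40 (30 and 60) for unchanged and 44 (36 and 60) for lost events. In the diploid list their median was 28 (21.7 and 42), while unchanged events had 39.9. A primary-only strength over 100 was seen at 352 weakened events (30.5%, 27.9 to 33.2%), at 9.64% of unchanged and at 7.69% of lost events. The share of weakened events among matched ones was 24.0% (21.9 to 26.2%) at a strength up to 50, 49.8% (46.5 to 53.1%) from 50 to 100, 65.2% (60.3 to 69.8%) from 100 to 200 and 73.0% (65.2 to 79.7%) over 200. A weak event has less room to be weakened and stay listed, since the smallest diploid strength was 13. From each event's own strength down to 13, the lowest ratio that could be listed had a median of -2.41 on the log2 scale over the weakened events, and was -0.82 for the weakest.

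**Figure D1:**
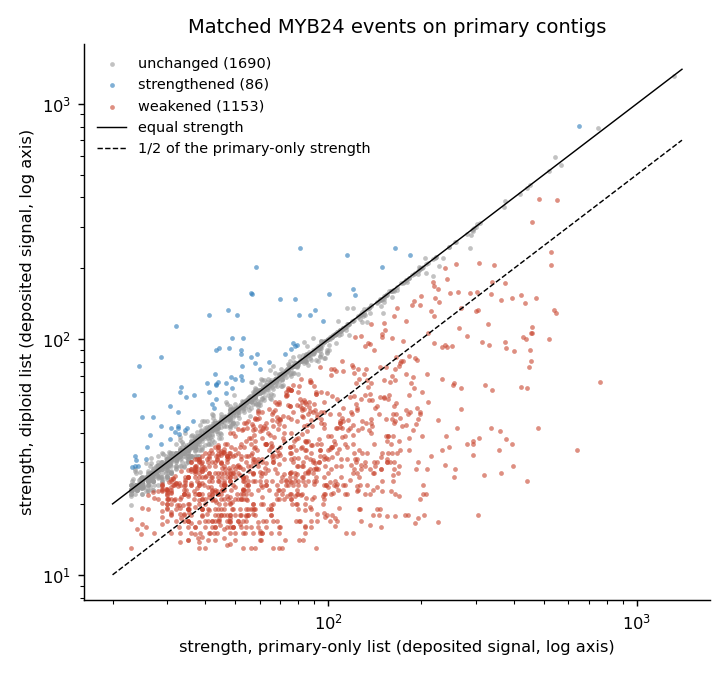
Strength of the 2929 matched events in the primary-only list (x, log axis) and the diploid list (y, log axis), both as the deposited signal, with each point 1 event. The 1690 unchanged events lie along the line of equal strength, and the 1153 weakened events fill the space beneath it on both sides of the dashed line of 1/2, down to the smallest diploid strength of 13.

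The ratios were spread over a wide range and were not gathered at 1/2 of the primary-only strength, which is -1 on the log2 scale. The log2 ratios of the weakened events had a median of -1.19, quartiles of -1.72 and -0.66, and a lowest value of -4.23. Of the 1153, 335 (29.1%) had a ratio of -0.75 or above, 279 (24.2%) lay within 0.25 of -1, and 539 (46.7%) lay lower still. Below -1 there were 666 (57.8%), below -2 there were 204 (17.7%) and below -3 there were 34 (2.95%). Stronger events had lower ratios: the median was -0.73 at a strength up to 50, -1.23 from 50 to 100, -1.79 from 100 to 200 and -2.02 over 200. The limit of what can be listed, given above, moves in the same direction.

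The position of the counterpart also differed among members. In 891 weakened events (77.3%) it lay within 3 bp of the primary-only position, against 86.9% of unchanged events. In the remaining 262 it lay 4 to 100 bp away, with a median of 42 bp, so that the diploid event can be another site nearby. These 262 had a median log2 ratio of -1.43, and the 891 had -1.11. Among the 240 events over a strength of 100 with a counterpart within 3 bp, the median was -1.71 and 38 (15.8%, 11.8 to 21.0%) lay within 0.25 of -1.

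**Figure D2:**
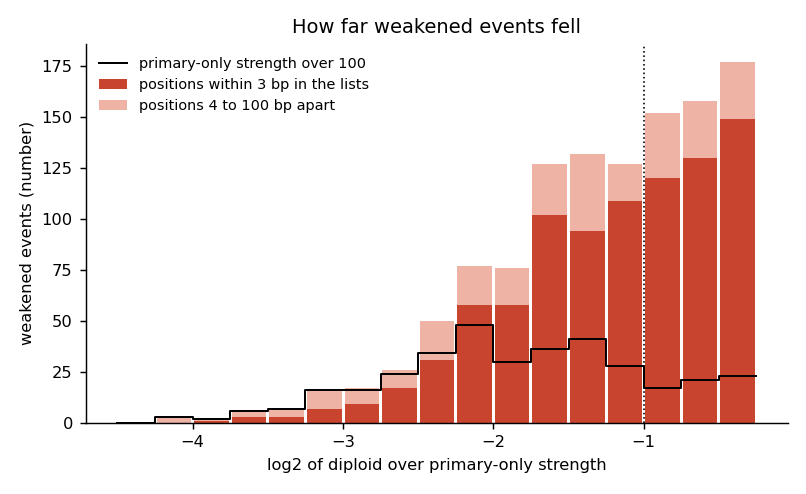
Number of weakened events (y) by the log2 of diploid over primary-only strength (x, classes of 0.25), split by how far apart the positions in the lists were; the line counts events with a primary-only strength over 100 and the dotted line marks 1/2. The 891 events with positions within 3 bp extend from the limit of -0.25 to -3.75, with no separate peak at -1.

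Significance over the control was lower along with strength. The deposited −log10 q of the weakened events had a median of 10.02 on primary contigs alone and of 3.87 with haplotigs. A −log10 q of 5 was reached by 883 of them (76.6%) in the first list and by 435 (37.7%) in the second. Of the 883, 424 (48.0%, 44.7 to 51.3%) also reached it in the diploid list. Unchanged events reached it in 51.0% and 50.3%.

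The strongest weakened event lay on Primary000008F at 3582861 (interval 3582762 to 3582962). Its strength was 760.0 without and 66 with haplotigs, 1 bp away, so 8.68% was kept, and its −log10 q was 190 and 10.8. The 32 haplotig events named after this contig reached at most 114, on Haplotig000008F_029 at 2153250. The primary-only value was thus above the sum of these 2 diploid values.

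Primary000147F at 602619 (602520 to 602720) and Primary000106F at 1508390 (1508291 to 1508491) kept about the same share. The first had 546 and 129, or 23.6%, and the second had 539 and 133, or 24.7%. Both had a haplotig event at a conserved spacing, described further on.

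A ratio nearer to 0 was seen at Primary000061F, where the event at 390066 had 550.0 on primary contigs alone and 390.0 with haplotigs. The strongest of 20 haplotig events named after this contig had 63. Primary000047F at 1886414 had 481 and 395.2, which is 82.2% kept. Its contig's haplotigs reached 214, on Haplotig000047F_023. These were the 2 members of the 10 strongest that kept over 1/2.

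On Primary000010F at 3835576 the strength was 526.9 and 234, and the strongest haplotig event of that contig had 259, on Haplotig000010F_021 at 431081. On Primary000085F at 1404132 it was 526 and 206, beside a strongest haplotig event of 157 on Haplotig000085F_008 at 133670. These were the members of the 10 strongest whose ratios, -1.17 and -1.35, were nearest to -1. Whether those haplotig events lie at the same locus is not known here, since contig and haplotig positions are not on a common scale.

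In the other 3 of the 10 strongest, the counterpart was 14 to 77 bp away. Primary000002F at 7233645 had 639.6 and 34, with the diploid event 77 bp away. Primary000058F at 2512182 had 520.6 and 100 at 39 bp, and Primary000114F at 1353579 had 479 and 42 at 14 bp. These diploid events can be other sites.

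The lowest ratios were also mostly at shifted positions. The 5 lowest were the event on Primary000002F at 7233645 (-4.23) and those on Primary000007F at 2763117 (-4.13), Primary000033F at 2214407 (-4.08), Primary000032F at 882315 (-3.77) and Primary000099F at 1958481 (-3.75). The counterparts lay 77, 37, 54, 79 and 1 bp away. The last, at 226.2 and 16.8, is the lowest ratio among counterparts within 3 bp. Just inside the limit were Primary000021F at 3261120 (239 and 200.9) and Primary000195F at 777842 (138 and 116). Just outside it were Primary000188F at 322935 (59.3 and 49.9) and Primary000027F at 1491949 (38 and 32).

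Weakened events lay mostly on contigs that have haplotig events. Of the 1153, 1072 (93.0%, 91.4 to 94.3%) were on a contig after which at least 1 haplotig with events is named, against 65.3% (63.0 to 67.5%) of unchanged events, 93.7% (92.9 to 94.5%) of lost events and 86.1% of all primary-only events. They were spread over 211 of 427 contigs. Among matched events the weakened share was 11.7% (9.52 to 14.3%) on the 259 contigs with 0 haplotig events, 23.3% (18.0 to 29.5%) with 1 to 3, 42.3% (38.5 to 46.2%) with 4 to 10 and 54.0% (51.4 to 56.5%) with 11 or more. Contigs with more haplotig events also had more primary-only events, with medians of 2, 8, 23 and 47.5 in these groups. Among contigs with at least 10 primary-only events, the weakened share was 48.3% (46.2 to 50.4%) on the 139 with haplotig events and 12.7% (8.35 to 18.7%) on the 19 without.

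The 81 weakened events on contigs with 0 haplotig events lay on 66 contigs and had lower strengths and ratios nearer to 0. Their median primary-only strength was 44.8 and their median log2 ratio -0.61, against -1.26 for the 763 on contigs with 11 or more haplotig events. The strongest was on Primary000280F at 299951 (299852 to 300052), with 220.7 and 168.3. Next came Primary000412F at 93660, with 185 and 65, a ratio of -1.51. Further down in strength, Primary000304F at 404049 had 136 and 41, a ratio of -1.73. Ratios below -1 thus also occurred where no haplotig named after the contig had an event. They were seen at the last 2 of these events and at others. Primary000457F at 74106 had -1.22, and the lowest ratio of the 81 was -2.36. All 3 were named after their values were seen.

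**Figure D3:**
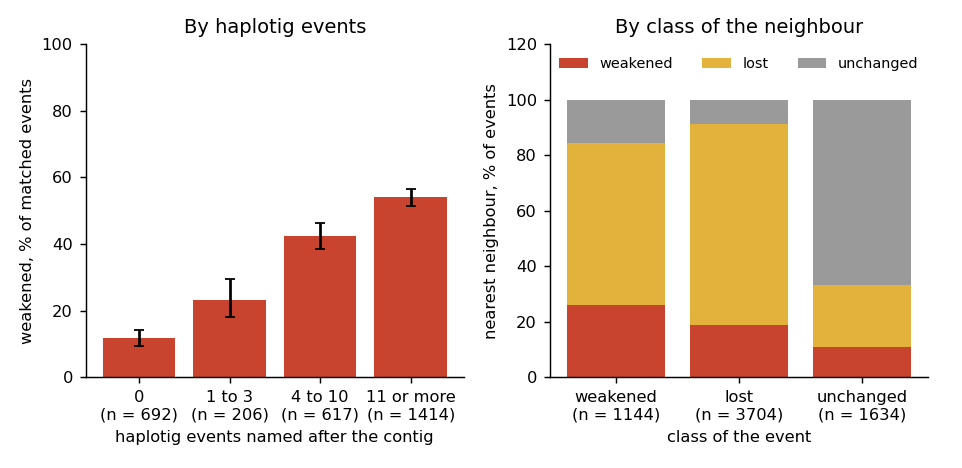
Left, weakened events as a share of matched events (%) by the number of haplotig events named after the contig, with 95% Wilson intervals; right, the class of the nearest neighbouring event (% of events) for weakened, lost and unchanged events. The weakened share goes from 11.7% to 54.0% from left to right, and neighbours of weakened events are mostly lost (58.5%) or weakened (26.0%).

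Weakened and lost events together made up 73.3% of the primary-only list, and most neighbours of weakened events were of these classes. The nearest neighbour that was weakened, lost or unchanged was lost for 669 of 1144 weakened events (58.5%, 55.6 to 61.3%), weakened for 297 (26.0%, 23.5 to 28.6%) and unchanged for 178 (15.6%, 13.6 to 17.8%). Over all primary-only events these shares were 56.8%, 18.2% and 25.01%, so the lost share was near that of the whole list. The neighbour was weakened or lost for 84.4% (82.2 to 86.4%) of weakened, 91.3% (90.3 to 92.1%) of lost and 33.2% (30.9 to 35.5%) of unchanged events, and for 74.99% of all. Where the neighbour lay 20 to 100 kb away, the weakened or lost share was still 86.3% (82.6 to 89.2%) for weakened and 35.1% (31.5 to 39.0%) for unchanged events. Over 100 kb it was 57.9% (46.7 to 68.4%) and 42.2% (36.7 to 47.8%), and these intervals overlap.

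Consecutive weakened or lost events, uninterrupted by an event of another class, formed 436 blocks that held weakened events. Blocks of at least 10 events held 730 weakened events (63.3%, 60.5 to 66.0%) and 67.5% (66.0 to 69.0%) of the lost events, and 96 weakened events stood alone. With 73.3% of all events in these classes, long runs cannot be read as particular to the weakened events. The largest block ran on Primary000002F from 24327 to 3803641, over 3.78 Mb, with 19 weakened and 50 lost events. In it the weakened events had strengths of 31.7 to 204 and log2 ratios from -3.50 to -0.26, so ratios near the limit and far under it occurred side by side. The lost events there had a median strength of 45 and the weakened ones 66. The next block, on Primary000011F from 314632 to 3684528, had 13 weakened and 53 lost events over 3.37 Mb.

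By contig, Primary000002F held most weakened events, 52 of its 232, beside 157 lost and 23 unchanged. Their median strength was 63.2 in the primary-only and 24.05 in the diploid list, and its 6 haplotigs with events held 77 events with a median strength of 25. Primary000000F had 36 of 257, with medians of 92.9 and 35.6, and 59 haplotig events on 9 haplotigs with a median of 25. The haplotig median was close to that of the weakened events in the diploid list on the first contig and lower on the second. Primary000028F had 26 of 80 and 5 unchanged events, with medians of 72.2 and 22.5, and 25 haplotig events with a median of 21. Primary000001F had 24 of 155, with medians of 63 and 31.95, and 82 haplotig events with a median of 27.5. Primary000106F had 27 of 46, most of them in the dense stretch described further on. This order is by count, and 17.3% of all primary-only events were weakened. Primary000000F and Primary000001F were under that share, and the other contigs named here were over it.

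Haplotig events at the same locus were sought through conserved spacing, since contig and haplotig positions could not be aligned. A haplotig event was matched to a primary-only event where another pair of events on the same 2 sequences, 300 bp to 50 kb away, kept the spacing to within 50 bp. Such a match was found for 103 weakened events (8.93%, 7.42 to 10.7%), 33 unchanged events (1.95%, 1.39 to 2.73%), 136 lost events (3.64%, 3.09 to 4.29%) and 4.16% of all primary-only events. Against haplotigs of the next contig in name order, which belong to other loci, the same search gave 34 weakened (2.95%, 2.12 to 4.09%), 31 unchanged (1.83%) and 127 lost events (3.40%). In this search the matches of unchanged and lost events were about as many as between sequences of different loci, and for weakened events the intervals of both searches did not overlap. The searches do not cover the same events, however. Events on contigs without haplotig events can be matched only in the next-contig search, and these are most frequent among unchanged events. The search needs a second event close by, and 866 of the weakened events had one in reach on a contig with a suitable haplotig. Among events in reach, the matched share was 11.9% (9.90 to 14.2%) for weakened events. It was 4.58% (3.28 to 6.36%) of 721 unchanged and 4.92% (4.17 to 5.79%) of 2765 lost events.

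A narrower search, chosen after seeing the data, asked for a spacing of at most 5 kb kept to within 5 bp. It gave 39 weakened events (3.38%, 2.48 to 4.59%) and 0 among haplotigs of the next contig, which allows up to 0.332% by the same interval. Unchanged events had 12 (0.710%, 0.407 to 1.24%) against 4 (0.237%, 0.0921 to 0.607%), and lost events 17 (0.455%, 0.284 to 0.728%) against 4 (0.107%, 0.0417 to 0.275%). More matches on haplotigs of the same contig were therefore counted in all 3 classes, although for unchanged events the intervals overlap. For lost events they overlap as well once the dense runs described next are left out. The lost counts were then 8 (0.217%, 0.110 to 0.427%) against 2 (0.0542%, 0.0149 to 0.197%). Of the 39, 18 lay in runs of at least 5 events with gaps of up to 5 kb, where repeated spacings make matches ambiguous. The other 21 lay outside, on 11 contigs, and their matches were not all unique either. Of these, the event on Primary000023F at 3900227 was matched here to 1565818 on Haplotig000023F_025, with a strength of 41.6. The wider search matched it to another event of that haplotig. That search gave the haplotig event at 1565818 to a weakened event elsewhere on the contig. The narrower search matched the nearby event at 3902519 to 1568969 on this haplotig, at a different offset. The match to 1565818 is therefore doubtful, and it was kept in the values of the 21. In 6 event pairs outside dense runs both primary-contig events were weakened.

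On Primary000147F the events at 602619 and 603605 were 986 bp apart, and those on Haplotig000147F_001 at 351256 and 352244 were 988 bp apart. The first had a strength of 546 in the primary-only list, 129 in the diploid list and 101.3 on the haplotig. The second had 56, 38 and 30.1. Beside its event at 351256 the haplotig had another, at 351290 with a strength of 118.7, which is not part of the match. The stronger site of the pair was the stronger one on all 3. Among the other pairs with both events weakened, this also held on Primary000023F and Primary000042F. It did not hold on Primary000001F, Primary000022F and Primary000142F.

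On Primary000022F the events at 2615550 and 2618604 were 3054 bp apart, and 3051 bp separated the events on Haplotig000022F_016 at 272419 and 275470. The strengths were 302, 132.4 and 233.2 at the first site and 227.5, 164 and 211 at the second. Here the haplotig value was above the diploid value of the primary contig at both sites.

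Primary000142F had events at 644522 and 645103, 581 bp apart, against 579 bp on Haplotig000142F_002. The first had 86, 48 and 40, which is nearly the primary-only strength when both diploid values are added (88). The second had 132, 22 and 53, whose sum of 75 is well under it.

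The other 3 such pairs were on Primary000001F, Primary000023F and Primary000042F. On Primary000001F at 3066913 and 3068249 (spacings of 1336 and 1338 bp) the haplotig strengths were 20 and 19.2, beside 19 and 22 on the primary contig. On Primary000023F at 1419591 and 1420458 (867 and 868 bp) they were 22.9 and 19 beside 52 and 17. On Primary000042F at 882510 and 882933 (423 and 422 bp) they were 21 and 22 beside 28 and 46. The haplotig values in these pairs were close to the smallest that the diploid list holds. In the primary-only list the pairs had, in the same order, 65 and 37, 163 and 46.8, and 46.2 and 75.8.

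A weakened event also stood beside a lost one with the spacing kept. Primary000126F had a weakened event at 879978, with 220.0 in the primary-only list, 96.6 in the diploid list and 113.6 on Haplotig000126F_004. Its neighbour, 416 bp away, was lost from the primary contig at a strength of 37, and the haplotig event 417 bp away had 37.4. The first site was listed on both copies in the diploid list and the second on the haplotig alone. This pair was chosen after its values were seen. In the other such pairs outside dense runs, lost and haplotig strengths were further apart. They were 34.6 and 60.3 on Primary000002F, 51.3 and 31.2 on Primary000008F, and 83.1 and 19 on Primary000011F. On Primary000018F they were 46 and 14, and on Primary000042F 85.1 and 72.9.

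**Figure D4:**
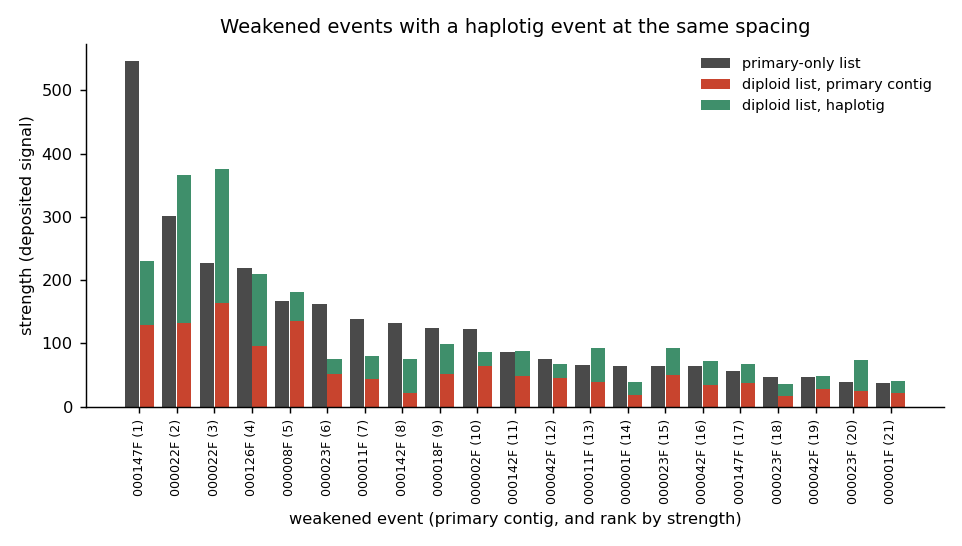
Strength (deposited signal) of the 21 weakened events outside dense runs with a haplotig event at a spacing kept within 5 bp: primary-only value beside the diploid values of primary contig and haplotig, stacked. Bars are single deposited values of 1 library, and the stacked sum lies above the primary-only value at some events and under it at others, with the widest gap at the event of 546 on Primary000147F. That bar leaves out a stronger event of the same haplotig, 118.7 at 351290, which lies beside the matched one at 351256.

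At these 21 events, whose matches were not all unique, the primary-contig event and the matched haplotig event were listed at like strengths. Over all weakened events the diploid strengths had quartiles of 21.7 and 42, so unrelated events can also have like strengths. The ratio was not computed for haplotigs of the next contig, so whether the likeness is particular to these matches was not tested. The log2 of haplotig over diploid primary strength had a median of -0.20 (quartiles -0.35 and 0.23), and 15 of 21 (71.4%, 50.04 to 86.2%) were within 1 log2 unit. The log2 of the sum of both over the primary-only strength had a median of 0.033 (quartiles -0.53 and 0.28, range -1.245 to 0.89), while the diploid value of the primary contig alone had -0.92. Over all 103 spacing-matched events the summed ratio had a median of -0.30 (quartiles -0.91 and 0.073). Spearman's rho between the diploid strengths of primary contig and haplotig was 0.61 over the 103 events and 0.59 over the 21. The 103 include 24 events of a stretch on Primary000106F whose sites could not be paired, as described further on. Over the 77 events outside dense runs rho was 0.54. It was 0.17 over the 34 matches to haplotigs of the next contig. All points come from 1 library. The sum does not tell the searches apart, since adding any listed haplotig strength raises it: with haplotigs of the next contig its median was -0.079.

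The spacing matches with the highest haplotig strengths were, besides those above, on Primary000080F, Primary000006F and Primary000042F and in a dense stretch of Primary000106F. On Primary000080F at 1062458 strengths of 394 and 150.0 stood beside 169 on Haplotig000080F_010 at 771697. On Primary000042F at 2870679 they were 400.0 and 89 beside 140.0 on Haplotig000042F_002 at 136490. On Primary000006F at 635518 they were 115.6 and 45.4 beside 153.1 on Haplotig000006F_034 at 600357, so there the haplotig value was above the primary-only one. In these 3 the spacing was kept within 50 bp but did not pass the narrower search. On Primary000106F the events at 1504484, 1524852, 1548093 and 1551460 were matched to haplotig strengths of 116.2, 139.4, 143.8 and 124.9.

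The densest group of weakened events lay on Primary000106F from 1497536 to 1551460. All 36 primary-only events there were weakened (25) or lost (11), and the ratios of the 25 ran from -3.19 to -0.61, with a median of -1.58. The strengths of the 36 events added up to 6341 (mean 176), and those of the 39 diploid events on the primary contig to 2506 (mean 64.3). Haplotig000106F_001 held 35 events from 8214 to 67630, with a summed strength of 2382 (mean 68.1). The 2 copies in the diploid list therefore had like numbers and mean strengths, and together they had 0.771 of the primary-only sum. The diploid sum includes events on the primary contig with no primary-only event within 100 bp. Among them were 125.4 and 159.6, at 2727 and 3245 bp from the first primary-only event. The stretches measured 53.9 and 59.4 kb.

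Single sites of this stretch could not be paired. A spacing match was found for 24 of the 25 weakened events, but the offsets between contig and haplotig positions of the matched events differed by up to 67.8 kb, more than the stretch itself. At 1508390, for example, strengths of 539 and 133 stood beside 100.2 at the matched position 18620, and the events 649 bp further on, at 1509039 and 19269, had 161, 70.0 and 68. In 5 of the 25 events the diploid position was over 3 bp away.

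**Figure D5:**
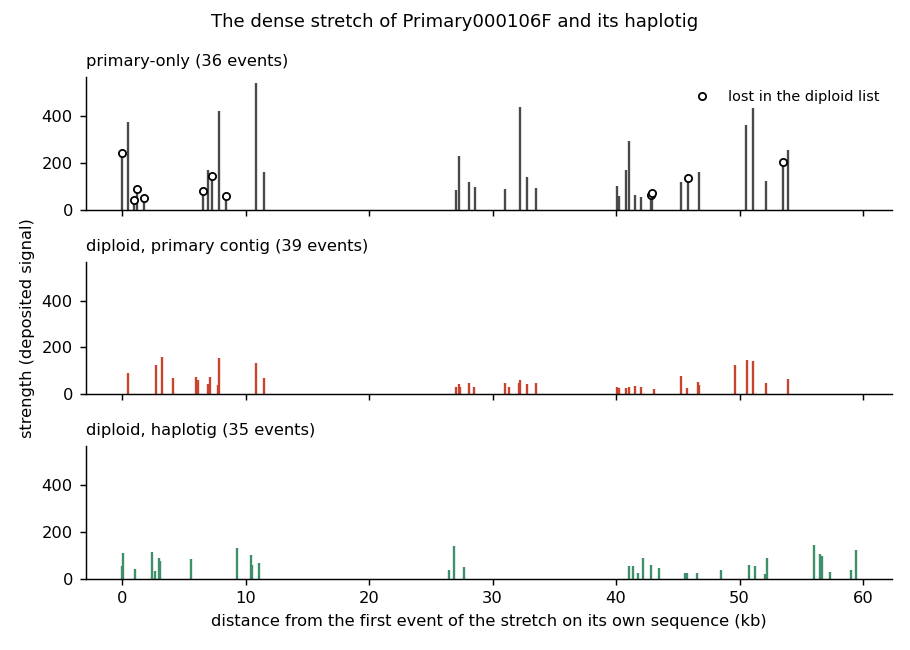
Strength (deposited signal, y) of events along the dense stretch of Primary000106F in the primary-only list (36 events, lost ones circled) and the diploid list (39 events), and of the 35 events of Haplotig000106F_001, by distance from the first event on each sequence's own scale (kb). The highest value is 539 in the primary-only list, 159.6 on the primary contig in the diploid list and 143.8 on the haplotig. The means are 176, 64.3 and 68.1. Some diploid events of the primary contig stand where the primary-only list has none.

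Close neighbours were seen at a higher share of weakened than of unchanged or lost events. Another primary-only event lay within 1 kb of 252 of them (21.9%, 19.6 to 24.3%), against 13.3% (11.7 to 15.0%) of unchanged, 13.2% (12.2 to 14.4%) of lost events, 60.5% (49.9 to 70.1%) of the 86 events higher in the diploid list and 15.3% of all primary-only events. The matching rule lets close events take the same diploid event, and 36 weakened events shared theirs with another weakened event. With mutually nearest pairs only, the weakened share was 20.3%. Runs of at least 5 events held 42 weakened events (3.64%), of which 25 were those on Primary000106F. The median distance to the nearest event was 14114 bp for weakened, 26588 bp for unchanged and 16850.5 bp for lost events, and 123 bp for those higher in the diploid list.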

How the data were processed

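The submitters' processing notes name Bowtie2 2.3.2, cutadapt 3.1 and Trim Galore 0.6.6, with no settings stated. Events were called with GEM, per the deposited lists' names. Sequence names point to version 1.1 of the clone 08 assembly, and that one list was made on primary contigs alone is read from these names. The lists have no header and were read in narrowPeak order. The deposited signal is called strength, and the −log10 p-value and −log10 q-value were the authors' values against the control. The deposited score was not used. Positions are those in the event names, and intervals of 201 bp are given 1-based.

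Events were matched, classed and spacing-matched as stated with the results, with each event in 1 spacing match, that with most supporting pairs first. Classing and spacing matches were tried on simulated data, with haplotig events placed for weakened events alone at a constant offset. No unrelated haplotig events were added, so false matches in the real lists were not tested by it. Named events were the 10 strongest, the 5 lowest ratios, those next to the limit, the strongest spacing matches, the 5 contigs with most weakened events and the largest block; the 6 pairs with both events weakened, the pair on Primary000126F and the events on contigs without haplotig events were chosen after their values were seen. Members and lists were chosen with earlier results of these data known. Software was Python 3.11.15 with matplotlib 3.10.9, scipy 1.17.1, pandas 2.3.3 and numpy 2.4.6.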

Additional observations from a re-analysis of the deposited data

How the results depend on the processing

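Of 53 recomputed values, 36 stayed within the interval of the value as reported, or within 1.5 times for the number of events. The other 17 moved. None changed sign, but only the summed log2 ratio could have done so. Counts and shares cannot be negative, and the weakened ratios were chosen below a negative limit. The median log2 ratio was -1.36 at a −log10 q of at least 5, -1.33 with a ratio limit of -0.5, -1.11 with counterparts within 3 bp and -1.87 at a strength over 100; a stricter ratio limit lowers it by construction. The share on contigs with haplotig events was 94.98% with a ratio limit of -0.5 and 98.1% on contigs with at least 10 events. The share with a weakened or lost neighbour was 88.9% with a ratio limit of -0.5. The share within 1 kb of another event was 17.9% when only events with −log10 q of 5 or more entered, and 19.1% without clusters. The share with a spacing match was 7.20% without clusters, 7.03% at a tolerance of 20 bp, 13.4% at 200 bp, 7.29% for spacings up to 20 kb, 3.38% for 5 bp and 5 kb, and 2.95% for haplotigs of the next contig. The summed log2 ratio was -1.34 with haplotig strength alone and -0.079 with haplotigs of the next contig. Reversed order gave the same share, 8.93%, since a single pair keeps its spacing when turned round, so orientation was not tested. The settings of 3 bp, 5 bp with 5 kb, at least 10 events, strength over 100, and the sum with the next contig's haplotigs were chosen after seeing the data. No paired analysis was possible because MYB24 and its control had 1 library apiece, which also bars leaving one out. The lists give no depth, so counting error of single strengths is unknown.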

Other observations

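Divided by strength, the deposited −log10 p had a median in the primary-only list of 0.160 for weakened, 0.146 for unchanged and 0.102 for lost events, and with haplotigs included it was 0.178 for weakened and 0.157 for unchanged events. Strengths were whole numbers, to the 1 decimal deposited, at 64.5% (61.7 to 67.2%) of weakened, 68.2% (65.9 to 70.3%) of unchanged and 72.2% (70.7 to 73.6%) of lost events in the primary-only list. The positions in both lists were identical at 0 of 1153 weakened and 4 of 1690 unchanged events, and exactly 1 bp apart at 76.4% and 85.03%.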
